A study of Mus musculus with 8 samples.

Results

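Gcg, the gene for proglucagon, and Cck, the gene for cholecystokinin, were followed through every plate of a single-cell data set of sorted enteroendocrine cells from mouse intestinal organoids. These 2 genes were taken by name from the 16115 genes that the deposited tables have in common, and their levels and their overlap in single cells were read out by reporter line and condition. The study sorted reporter-positive cells of C57BL/6 organoids into 384-well plates after 3 treatments, which were no BMP4, 24 h of BMP4 and 4 d of BMP4, to see how hormone expression responds to this morphogen. The reporters were a Gcg-Venus line (2 plates with all 3 conditions), a Gip-Cre line (1 plate with all 3) and a Tac1-Cre line (2 plates with all 3, 1 plate with 24 h only and 2 plates with 4 d only). A cell entered a plate because its reporter was on, so the level of Gcg in the Gcg line reflects the sort as well as the cell, and differences in Gcg between lines are given here as levels only. A Cre reporter marks a cell that has expressed the gene at some time, whereas a Venus reporter follows the gene's own activity more closely, and the labels do not say how each allele was built or whether a line is 1 clone.

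Proglucagon is cut in intestinal L cells into GLP-1, which raises insulin release, and GLP-2, which acts on the intestinal lining. Cholecystokinin is the hormone of I cells, released in response to fat and protein, and it acts on the gallbladder, the pancreas and the vagus nerve. L and I cells are classical names for cells defined by 1 hormone, but gut endocrine cells are known to hold several hormones and to change their set as they move from crypt to villus, where BMP signalling is stronger.

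The promoters of both genes are shown because the transcripts of both were often found in the same single cells. Gcg lies on chromosome 2 (GRCm38, 62474530 to 62483650, minus strand) and Cck on chromosome 9 (121489824 to 121495694, minus strand), and no other gene of GENCODE M21 overlaps either. Each line gives the 250 bases before the transcription start from RefSeq on GRCm38.p6, 5′ to 3′ on the gene's own strand, with the motifs found by a search of both strands in capitals.
Gcg chr2:62483654-62483903: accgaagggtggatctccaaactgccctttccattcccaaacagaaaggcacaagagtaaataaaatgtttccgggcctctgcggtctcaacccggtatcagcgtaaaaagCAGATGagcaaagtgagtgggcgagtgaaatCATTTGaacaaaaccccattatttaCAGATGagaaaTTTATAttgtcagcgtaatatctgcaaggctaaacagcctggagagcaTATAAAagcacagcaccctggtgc
Cck chr9:121495695-121495944: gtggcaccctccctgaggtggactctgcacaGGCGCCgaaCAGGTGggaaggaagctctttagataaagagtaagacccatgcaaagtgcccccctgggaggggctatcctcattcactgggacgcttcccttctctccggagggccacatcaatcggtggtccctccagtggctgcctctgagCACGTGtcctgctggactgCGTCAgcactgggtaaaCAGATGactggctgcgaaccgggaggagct
The Gcg window held a TATA box (TATAAA) 24 to 19 bases before the start, a reverse copy of it further upstream, and 3 E-boxes (CANNTG). In the Cck window there were 3 E-boxes as well, the core of a cAMP response element (TGACG, on the reverse strand) 47 to 43 bases before the start, and a GC site bound by Smad1 and Smad5 (GGCGCC), but no TATAAA. Of 32851 mouse promoter windows of this length, 66.2% held CANNTG, 12.4% TATAAA, 17.8% TGACG and 9.59% GGCGCC, so only the E-box is common. Neither window held TGACGTCA (1.55% of windows), TAATTA (4.84%) or GTCTAGAC (0.167%). These matches describe letters, and the files hold no measurement of a factor at them.

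Of 3072 wells, 1006 held at least 2000 transcripts and were used as cells, with 9 to 135 in a plate and condition. On Gcg plate 1, 66.7% of 96 untreated wells, 72.9% of 96 wells at 24 h and 49.5% of 192 wells at 4 d were kept. On Gcg plate 2 the shares of equally many wells were 78.1%, 86.5% and 12.5%, so its 4 d values rest on a small part of the wells. The 14 sums of cells used in tests held 104278 to 1251853 transcripts each. Levels are given as CPM, counts scaled to the total of each sum, and because each molecule is counted once at its 3′ end, levels of different genes were not scaled by length. All 8 plates use the same 384 well barcodes, and on the plates with all 3 conditions the condition and the block of plate columns coincide and cannot be told apart. On the Gcg plates Gcg was counted in 378 and 379 of their 384 wells and Cck in 367 and 376. Values in cells without an endocrine signature are therefore given below as a measure of background. The source of these counts was not tested. Whether each plate is a culture of its own is not stated in the labels, so p-values reflect only how plates vary, and that variation may be technical.

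In the Gcg line, Gcg, the gene whose reporter was sorted, was 20.2-fold lower on plate 1 and 17.8-fold lower on plate 2 after 4 d of BMP4 than in untreated cells. On Gcg plate 1 its level was 42909 CPM in 64 untreated cells, 39067 CPM in 70 cells at 24 h and 2119 CPM in 95 cells at 4 d. Gcg plate 2 gave 77616 CPM in 75 untreated cells, 31622 CPM in 83 cells at 24 h and 4349 CPM in 24 cells at 4 d. Both plates thus had their lowest level at 4 d, whereas at 24 h plate 1 was close to its untreated level and plate 2 was 2.45-fold lower. As a share of all transcripts, Gcg went from 4.29% to 0.212% on plate 1 and from 7.76% to 0.435% on plate 2. These are sums over sorted cells, so fewer Gcg cells and less Gcg RNA per cell cannot be told apart from them alone.

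In the other lines Gcg was counted in few cells. The Gip plate gave 7.34 CPM untreated (4 transcripts), 39.6 CPM at 24 h (23 transcripts) and 36.6 CPM at 4 d (32 transcripts), and in each treated condition more than 50% of these transcripts came from a single cell. Tac1 plate 1 gave 358, 11.4 and 34.5 CPM in the same order. Tac1 plate 2, the plate with 24 h only and 1 of the plates with 4 d only had no Gcg transcript, which allows up to 28.8 CPM in the untreated cells of Tac1 plate 2 (3 transcripts, counting error only). The other plate with 4 d only held 3 Gcg transcripts. Of the 165 Gcg transcripts in untreated cells of Tac1 plate 1, 95.2% sat in 1 cell, which held 157 Gcg, 438 Cck and 623 Gip transcripts but only 1 Tac1 transcript among 6498, and without it the level was 17.6 CPM.

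**Figure D1:**
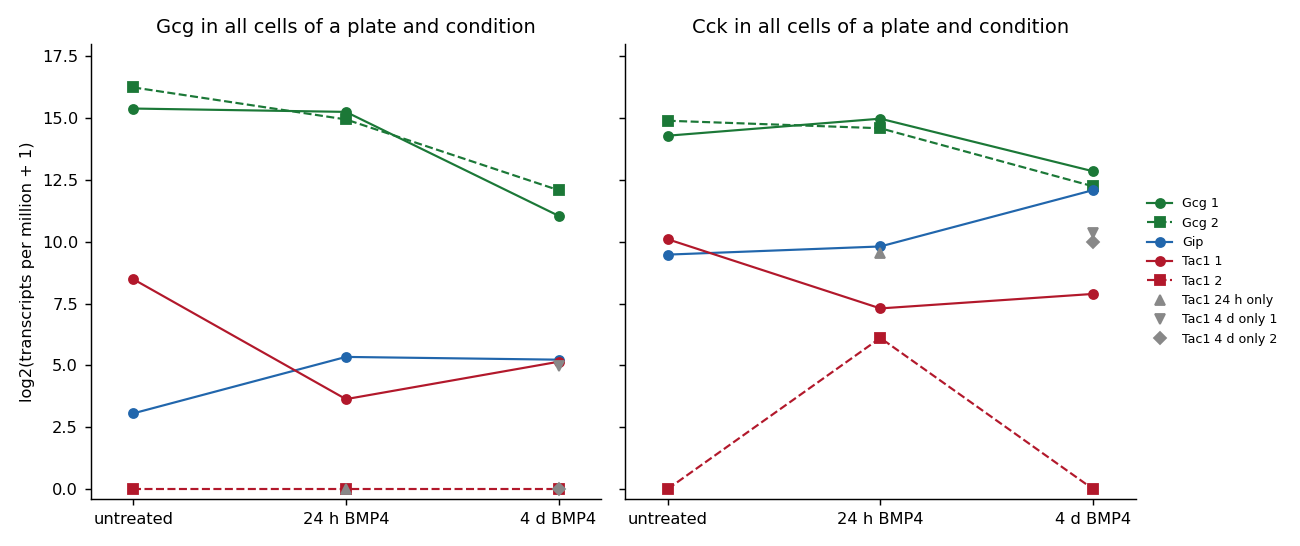
Levels of Gcg (left) and Cck (right) summed over all cells of a plate and condition, as log2 of CPM plus 1; lines join the conditions of 1 plate and grey symbols are Tac1 plates with a single condition. Both Gcg plates are lowest at 4 d in both panels, the Gip plate is highest in Cck at 4 d, and the 24 h point of Tac1 plate 2 rests on 9 cells.

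Gcg fell at 4 d in the Gcg line, and Cck did not pass the test. In edgeR's quasi-likelihood fit with plate as a block, Gcg changed by -4.09 ± 0.52 on the log2 scale (SE, 2 plates, lower in both, adjusted p = 0.023), the fourth lowest of 8308 genes tested. Cck changed by -1.91 ± 0.46 (lower in both plates, adjusted p = 0.27). So 1 of these 2 genes was called, where 0.277% of all genes tested were called in either direction and 0.0843% were called lower. The call of Gcg rests on few plates: it was lost without Tac1 plate 1 (-4.09, adjusted p = 0.11), without Tac1 plate 2 (-4.07, 0.091) and without plate as a block (-4.07, 0.16), while the size hardly moved. Fits with 1 Gcg plate left hold no spread of that line, so only sizes are given. Gcg changed by -4.19 without Gcg plate 2, and Cck by -2.48 without Gcg plate 1. Cck passed with DESeq2 (-1.86, adjusted p = 0.021).

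At 24 h neither gene passed in the Gcg line. Gcg changed by -0.67 ± 0.47 and Cck by 0.16 ± 0.44 (adjusted p = 1 for both with edgeR, where 0.0722% of genes were called). The direction of Cck differed between the plates: it was 1.61-fold higher on plate 1 and 1.23-fold lower on plate 2, and without plate 1 the change was -0.20.

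Cck was the more widely spread of the pair. On Gcg plate 1 its level was 20034 CPM untreated, 32294 CPM at 24 h and 7392 CPM at 4 d. On Gcg plate 2 it was 30480, 24695 and 4848 CPM. Cck was therefore highest at 24 h on plate 1 and in untreated cells on plate 2, and lowest at 4 d on both, 2.71-fold and 6.29-fold below untreated. On the Gip plate the sum went the other way, with 714 CPM untreated, 897 CPM at 24 h and 4356 CPM at 4 d. The last was 6.10-fold above untreated, with no replicate plate. Of the Cck of this plate at 4 d, 63.1% sat in 3 of 135 cells. At equal depth, the share of its cells with at least 1 Cck transcript was 63.5%, 54.3% and 48.1% in the same order. With at least 5 it was 6.35%, 11.4% and 13.5%. The higher sum at 4 d thus came mostly from few cells. Tac1 plate 1 gave 1099, 157 and 236 CPM, and Tac1 plate 2 gave no Cck transcript untreated or at 4 d and 4 transcripts at 24 h. The Tac1 plates with a single condition held 737 CPM at 24 h and 1314 and 1023 CPM at 4 d, of which 50.5%, 73.6% and 78.2% came from 1 cell each.

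Pooled over the lines, the 2 genes did not pass at either time. Gcg changed by -1.07 ± 0.84 at 24 h (adjusted p = 1) and by -2.85 ± 1.00 at 4 d (adjusted p = 0.18), and Cck by -0.52 ± 0.78 (adjusted p = 1) and -0.71 ± 0.88 (adjusted p = 0.80). The background was 0.0963% of genes called at 24 h and 3.33% at 4 d. In the Tac1 line the fitted changes were -4.92 ± 0.91 and -3.20 ± 0.83 for Gcg and -2.78 ± 0.68 and -2.05 ± 0.66 for Cck at 24 h and 4 d, none of which passed (adjusted p from 0.12 to 1 with edgeR, background 0.0241% and 2.01%), although all 4 passed when no filter on low counts was used. All 4 values rest on the 1 cell described above. Without it the changes in the Tac1 line were -0.59 and 1.12 for Gcg and 0.07 and 0.81 for Cck, and the pooled Cck changes turned to 0.18 and 0.27. The line differences without it were -0.081 at 24 h and -5.21 at 4 d for Gcg and 0.088 and -2.72 for Cck. The difference between the Gcg and Tac1 lines did not pass for either gene at 24 h (Gcg 4.25 ± 1.02, Cck 2.94 ± 0.80, adjusted p = 1 for both) or at 4 d (Gcg -0.89 ± 1.00 with adjusted p = 0.86, Cck 0.14 ± 0.76 with adjusted p = 1.0). In these differences edgeR called 0 of 8308 genes at either time (146 and 754 at an unadjusted p under 0.05), and DESeq2 called 0 at 24 h and 22 at 4 d.

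Among untreated cells Cck was higher in the Gcg line than in the Tac1 line, and also than on the Gip plate, which is 1 sum and is assumed to vary like the other lines (2 residual degrees of freedom). The difference was 5.38 ± 1.13 on the log2 scale against the Tac1 line (2 plates each, adjusted p = 0.0011) and 5.08 ± 1.51 against the Gip plate (adjusted p = 0.049), in edgeR fits that called 16.4% and 5.09% of 9168 genes, 8.76% and 3.04% as higher in the Gcg line. The order of untreated Cck levels was Gcg plate 2, Gcg plate 1, Tac1 plate 1, the Gip plate and Tac1 plate 2, and the Gip and Tac1 lines did not differ beyond their spread (0.30 ± 1.14, adjusted p = 0.94 with edgeR, 6.81% of genes called). Neither call held with DESeq2 (adjusted p = 0.28 and 1), and the difference from the Gip plate was also lost with DESeq2 size factors (0.077) and with all listed genes (0.10). Without the single Gcg-rich and Cck-rich cell of Tac1 plate 1, the differences from the Tac1 line were 8.02 for the Gcg line and 2.94 for the Gip plate (adjusted p = 0.046). The Tac1 tables also differ from the others in their decimals and in listing mitochondrial genes, so line and kind of table cannot be told apart there.

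Single cells were sorted into those rich and those poor in 8 transcripts that most endocrine cells share (Chga, Chgb, Cpe, Scg2, Scg3, Scg5, Resp18 and Pcsk1), after drawing 2000 transcripts per cell. Cells with at least 10 such transcripts are called pan-endocrine here and those with at most 2 non-endocrine. In untreated pan-endocrine cells of Gcg plate 1 the median was 543 Gcg transcripts per cell (40 cells, median depth 9699), then 226 at 24 h (49 cells, 10255) and 15.5 at 4 d (38 cells, 9713). Gcg plate 2 gave 489 (57 cells, 7385), 205 (54 cells, 14681) and 30.6 (12 cells, 4776). Non-endocrine cells of the same plates held medians of 14.02, 10.01 and 17.5 Gcg on plate 1 (19, 7 and 36 cells, median depths 9099, 5553 and 17463) and 18.04, 48.3 and 30.1 on plate 2 (11, 17 and 5 cells, 4462, 15884 and 7744). At 4 d the non-endocrine cells were the deeper ones, so the classes are also compared at 2000 transcripts per cell. There the Gcg medians at 4 d were 4 in pan-endocrine and 2 in non-endocrine cells of plate 1 and 9 and 6 on plate 2, against 116.5 and 2, and 209 and 5, in untreated cells. The pan-endocrine cells thus held more Gcg than the non-endocrine ones at equal depth in both conditions, by far less at 4 d.

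Cck lay further above the non-endocrine cells at 4 d, with medians at equal depth of 19 against 1 on plate 1 and 12 against 3 on plate 2. Unthinned, its median in pan-endocrine cells was 271, 361 and 66.5 transcripts on plate 1 and 211, 417 and 48.8 on plate 2, against 6.00, 5.00 and 7.51 and 8.01, 13.0 and 14.02 in non-endocrine cells. At 20 of 2000 transcripts, 30 of 40, 30 of 49 and 4 of 38 pan-endocrine cells of plate 1 held Gcg, and 49 of 57, 35 of 54 and 2 of 12 of plate 2. For Cck the counts were 32 of 40, 40 of 49 and 18 of 38, and 49 of 57, 46 of 54 and 5 of 12. When only pan-endocrine cells were summed, the change at 4 d in the Gcg line was -4.15 ± 0.35 for Gcg (adjusted p = 1.1e-09) and -1.59 ± 0.34 for Cck (adjusted p = 0.0046). In that fit Tac1 plate 2 kept only its untreated sum, as its 9 cells at each BMP4 time fell under the minimum of 10. The spread therefore came from the 2 Gcg plates alone, so these p-values rest on little replication. With the background per cell taken off, an alternative added after seeing the data, Gcg changed by -5.90 ± 0.60 (adjusted p = 0.0073).

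**Figure D2:**
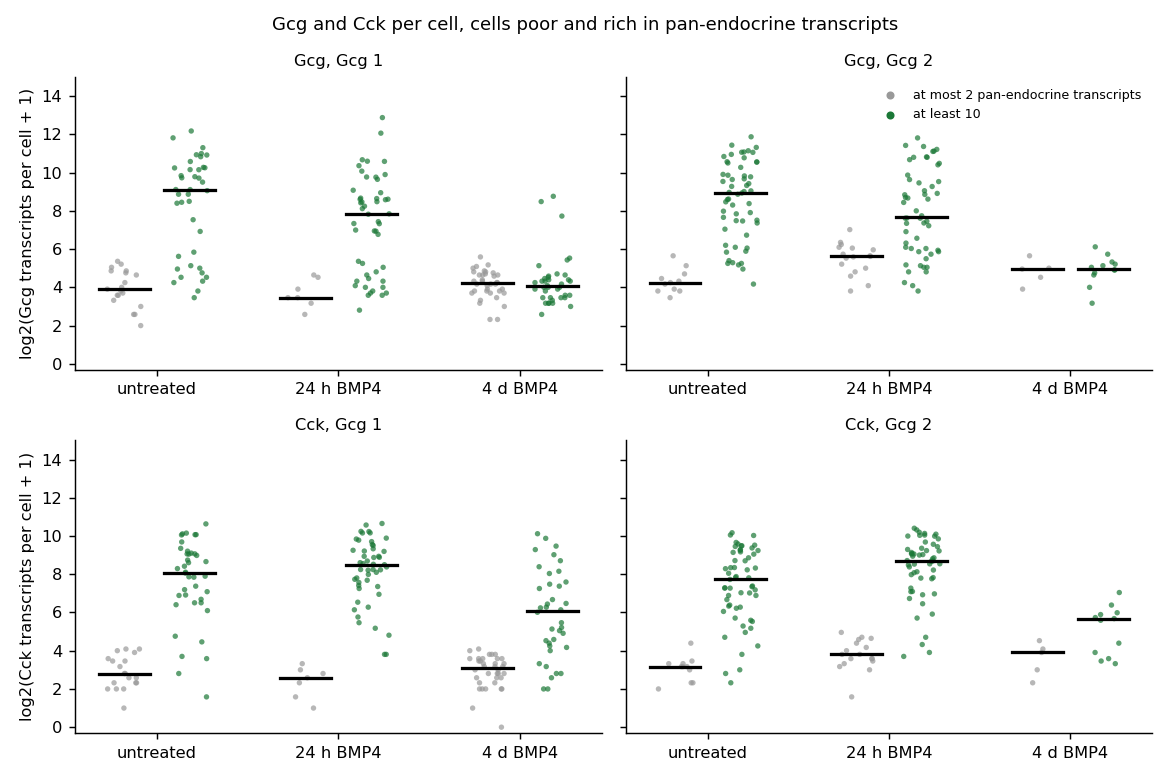
Transcripts of Gcg (top) and Cck (bottom) per cell on the Gcg plates, as log2 of the unthinned count plus 1, in cells with at most 2 (grey) and at least 10 (green) of the 8 pan-endocrine transcripts; black bars are medians. At 4 d the green Gcg medians are 15.5 and 30.6 and the grey ones, in deeper cells, 17.5 and 30.1 (4 and 9 against 2 and 6 at equal depth), while the green Cck medians (66.5 and 48.8) lie above theirs (7.51 and 14.02).

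Summed marker genes of other cell types differed between the conditions on these plates, and such sums do not count cells. The summed level of 6 goblet cell genes was 9700 and 1778 CPM in untreated cells, 2703 and 1022 CPM at 24 h and 18477 and 8359 CPM at 4 d, with all 6 detected in each sum except untreated plate 2, where Clca1 was at 0. These genes did not move together. At 4 d in the Gcg line Clca1 changed by 6.92 ± 0.71 and Spink4 by -3.39 ± 0.48 (log2, adjusted p = 0.0085 and 0.026 with edgeR). The 8 enterocyte genes summed to 24740 and 18240 CPM, 17303 and 21594 CPM, and 30584 and 9165 CPM. At 4 d this sum was above untreated on plate 1 and below it on plate 2. The 8 pan-endocrine genes summed to 5892, 8595 and 4440 CPM on plate 1 and to 10811, 7264 and 6711 CPM on plate 2. Among pan-endocrine cells alone Gcg changed by -4.15 at 4 d, beside -4.09 among all cells.

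Gcg and Cck were mostly found in the same cells before treatment, and at 4 d few cells held both. At a threshold of 20 of 2000 transcripts, which no untreated non-endocrine cell reached for either gene (at 24 h and 4 d 1 of 7, 1 of 36 and 1 of 17 non-endocrine cells reached it for Gcg, 0 of 5 on plate 2 at 4 d, and none for Cck), 31 of 64 untreated cells of Gcg plate 1 held both, 3 held Gcg alone and 5 Cck alone. On Gcg plate 2, 49 of 75 untreated cells held both, 5 Gcg alone and 4 Cck alone. Of the sorted untreated Gcg cells 91.2% and 90.7% held Cck, and of the sorted untreated Cck cells 86.1% and 92.5% held Gcg. Cells were sorted by the Gcg reporter, so the share of Cck cells with Gcg reflects the sort as well. It does not describe Cck cells of the organoids at large.

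After 24 h the cells with both numbered 32 of 69 and 36 of 83, while those with Cck alone were 13 and 15 and those with Gcg alone were 1 and 2. At 4 d only 3 of 94 and 1 of 24 cells held both, 2 and 1 held Gcg alone, and 18 and 5 held Cck alone. The share of sorted Cck cells that also held Gcg thus ran from 86.1% to 71.1% and 14.3% on plate 1. On plate 2 it ran from 92.5% to 70.6% and 16.7%. Both plates show the same order over the conditions, but 2 plates cannot give an exact p below 0.5, and the change of overlap was not tested. Of sorted Gcg cells, in the same order, 91.2% of 34, 97.0% of 33 and 60% of 5 held Cck on plate 1. The shares on plate 2 were 90.7% of 54, 94.7% of 38 and 50% of 2. Of cells with less Gcg, 16.7%, 36.1% and 20.2% held Cck on plate 1, and 19.0%, 33.3% and 22.7% on plate 2. Spearman's rho between Gcg and Cck across thinned cells was 0.76, 0.71 and 0.23 on plate 1 (64, 69 and 94 cells) and 0.73, 0.64 and 0.49 on plate 2 (75, 83 and 24 cells). Among pan-endocrine cells it was 0.57, 0.64 and 0.099 on plate 1 (40, 49 and 38 cells) and 0.53, 0.39 and 0.45 on plate 2 (57, 54 and 12 cells). These are descriptions, since the cells share library, plate and background.

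**Figure D3:**
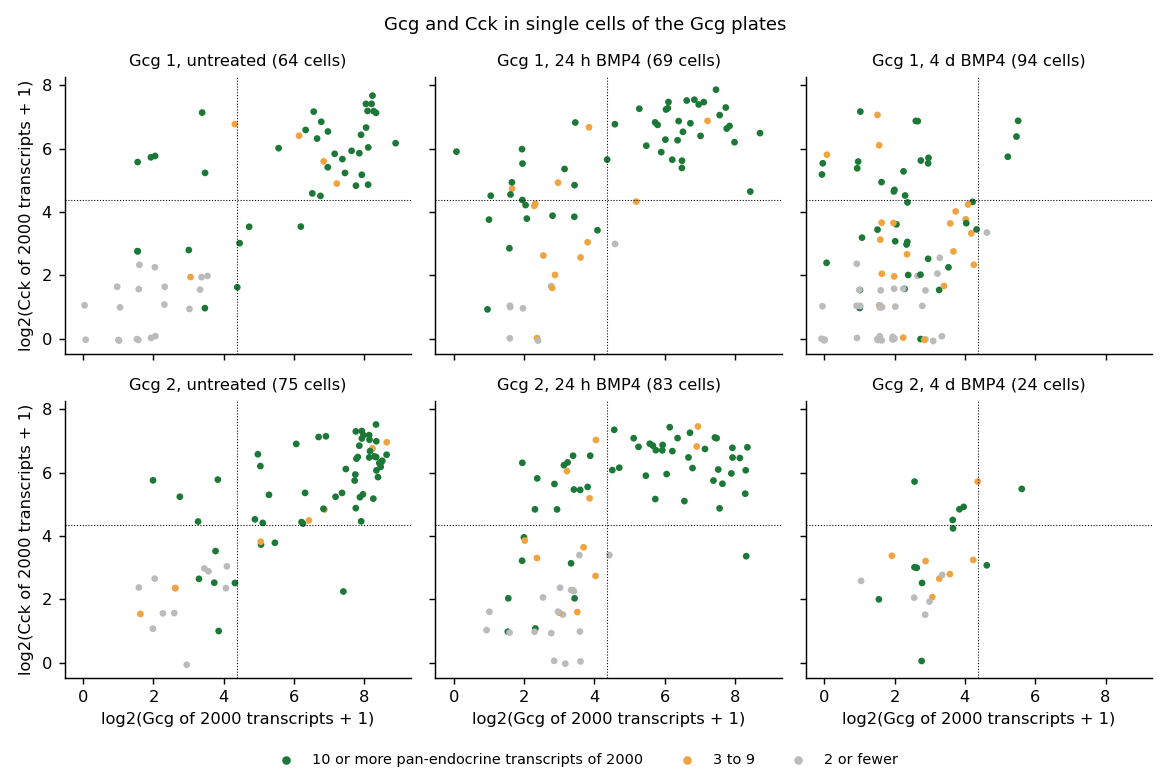
Gcg against Cck in each cell of the Gcg plates after drawing 2000 transcripts per cell, as log2 of the count plus 1 with a small jitter; colour gives the pan-endocrine transcripts and dotted lines mark 20 transcripts. The upper right quadrant holds 31 and 49 untreated cells but 3 and 1 cells at 4 d, when 18 and 5 cells lie in the upper left.

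Over all conditions of a plate and at the lower threshold of 5 of 2000 transcripts, Cck was present in 81.0% of 126 cells with Gcg and in 42.6% of 101 cells without it on plate 1. On plate 2 the shares were 83.02% of 159 and 47.8% of 23. The mean difference was 36.8 ± 2.25 percentage points (SD, 2 plates, higher in both), with an exact sign-flip p of 0.5, the smallest that 2 plates allow, and 66.3 points at a threshold of 20. The difference was smaller within pan-endocrine cells (22.5 ± 19.7 points) and at 1 transcript (16.5 ± 11.7). In untreated pan-endocrine cells it was -5.71 and -3.57 points, where only 5 and 1 cells lacked Gcg. These shares include background, which is given with the shares by condition below. They also pool conditions, so presence of Gcg and condition are mixed in the difference. On plate 1 36.2% of cells held Gcg and 46.8% Cck at 4 d, against 68.8% and 65.6% untreated.

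Within the cells that held at least 40 transcripts of the pair, Gcg was mostly the higher in untreated cells and Cck at 4 d. The median log2 ratio of Gcg to Cck was 1.16 in 37 untreated cells, -0.34 in 39 cells at 24 h and -4.22 in 16 cells at 4 d on plate 1. Plate 2 gave 1.60 in 56 cells, -0.65 in 50 cells and -0.95 in 5 cells. Gcg was the higher of the 2 in 26 of 37, 14 of 39 and 0 of 16 cells on plate 1, and in 48 of 56, 21 of 50 and 1 of 5 on plate 2. The median ratio was thus positive in untreated cells and negative at 24 h and 4 d on both plates, a difference that was not tested. The counts include the background measured in non-endocrine cells.

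The most abundant hormone of each cell was read from 13 gut hormone genes, counting only cells with at least 20 transcripts of one. Gcg led in 24 of 64, 13 of 69 and 0 of 94 cells on plate 1 and in 43 of 75, 19 of 83 and 0 of 24 on plate 2. Cck led in 4, 16 and 4 cells and in 6, 14 and 1. Cck-led cells were therefore most frequent at 24 h, with 16 on plate 1 beside 13 led by Gcg, and 14 on plate 2 beside 19. At 4 d Nts, the neurotensin gene, led in 38 of 94 and 11 of 24. The Cck cells of 4 d carried other hormones: of 21 on plate 1, 18 held Nts, 15 Pyy and 21 Sct at 20 or more transcripts, where of 36 untreated Cck cells 5 held Nts, 9 Pyy and 1 Sct. Plate 2 gave 5 Nts, 4 Pyy and 5 Sct cells of 6 at 4 d, against 5, 12 and 1 of 53 untreated. The 4 d cells with less Cck held these hormones too: of 73 on plate 1, 41.1% held Nts, 19.2% Pyy and 39.7% Sct, and of 18 on plate 2, 55.6%, 38.9% and 61.1%. Pyy encodes peptide YY, the partner hormone of L cells, and Sct encodes secretin.

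**Figure D4:**
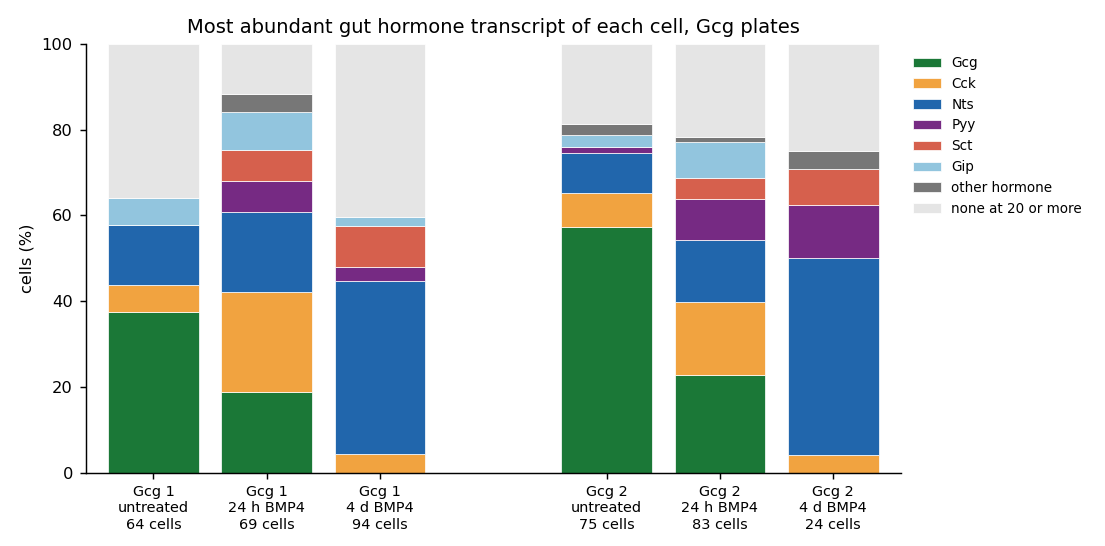
Share of cells on the Gcg plates by their most abundant gut hormone transcript, among 13 genes and with at least 20 of 2000 transcripts required. Gcg-led cells go from 24 of 64 and 43 of 75 to none at 4 d, Cck-led cells peak at 24 h (16 of 69 and 14 of 83), and Nts-led cells are the largest hormone group at 4 d.

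Shares of cells with Gcg or Cck at 5 of 2000 transcripts were compared over plates by an exact two-sided sign-flip test. On the Gcg plates the Gcg share was 68.8%, 69.6% and 36.2% on plate 1 and 92%, 83.1% and 87.5% on plate 2 over untreated, 24 h and 4 d. The Cck share was 65.6%, 85.5% and 46.8%, and 85.3%, 73.5% and 75.0%. Among non-endocrine cells, 4 of 19, 2 of 7 and 9 of 36 reached 5 Gcg transcripts on plate 1 and 7 of 11, 13 of 17 and 4 of 5 on plate 2, so on plate 2 the Gcg shares at 24 h and 4 d are close to background. For Cck the counts were 0 of 19, 1 of 7 and 2 of 36, and 4 of 11, 2 of 17 and 2 of 5. On the Gip plate Gcg reached 5 transcripts in 0 of 63, 1 of 70 and 0 of 133 cells, and Cck in 4 of 63, 8 of 70 and 18 of 133. Over 5 plates the Gcg share changed by -7.71 ± 14.02 points at 4 d (SD, lower in 3 and equal in 2, exact p = 0.25) and the Cck share by -4.69 ± 10.1 points (lower in 3, higher in 1 and equal in 1, exact p = 0.375). At 24 h the changes over 4 plates were -2.02 ± 4.73 points (exact p = 0.625) and 2.91 ± 13.3 points (exact p = 0.75). The smallest p these designs allow is 0.062 at 4 d and 0.12 at 24 h, so no share could pass. Without Gcg plate 1 the 4 d changes were -1.49 points for Gcg and -1.15 for Cck, and without thinning -0.47 and -2.09. At a threshold of 20 transcripts the Gcg share was 53.1% untreated and 5.32% at 4 d on plate 1 and 72.0% and 8.33% on plate 2, and the Cck share was 56.2% and 22.3%, and 70.7% and 25%, which moved the mean changes to -22.6 and -15.0 points.

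Outside the Gcg line, cells rich in Cck were few and most held another hormone. On the Gip plate, 0 of 63 untreated cells, 0 of 70 cells at 24 h and 8 of 133 cells at 4 d held 20 or more Cck transcripts of 2000 (the zero counts allow up to 4.76% and 4.29%). Of these 8 cells, 7 held at least 20 Gip transcripts, 6 Sct, 3 Pyy and 0 Gcg. Of the other 125 cells at 4 d, 85.6% held Gip at that threshold, 31.2% Sct, 16% Pyy and 0% Gcg. The cell richest in Cck held 1065 Cck transcripts, 27.9% of the plate's Cck at 4 d. Without that cell the level was 3185 CPM, still above the 714 CPM of untreated cells. Each Tac1 plate with a single condition had 1 such cell, with 51, 93 and 68 Cck transcripts of 2000 and no Gcg.

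Among other gut hormones, secretin rose in the Gcg line. Of 11 listed, 10 passed the filter on low counts, and at 4 d 1 rose in edgeR and none fell (7 at an unadjusted p under 0.05, 4 with DESeq2), with a median log2 change of -1.46 beside -0.0044 over all genes. Sct rose by 3.86 ± 0.46 (adjusted p = 0.012). Pyy (2.46 ± 0.47, adjusted p = 0.10), Nts (2.50 ± 0.50, 0.15) and Gip (-1.96 ± 0.52, 0.33) did not pass. At 24 h edgeR called 0 of the 10 (4 at an unadjusted p under 0.05, 2 with DESeq2). Over all lines at 4 d, Sct (4.10), Pyy (3.57) and Nts (3.26) rose and Iapp (-2.71) and Tac1 (-2.13) fell. Of all genes, 0.277% were called in the Gcg line at 4 d, 0.0722% there at 24 h and 3.33% over all lines at 4 d. The comparisons over all lines and in the Gcg line share the same untreated sums.

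**Figure D5:**
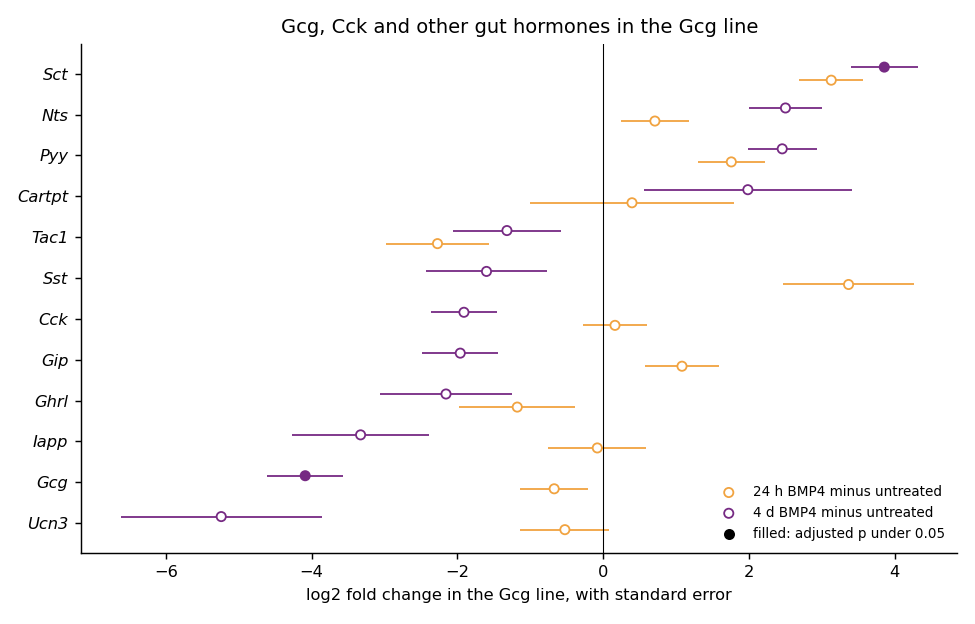
Log2 fold change with its standard error of Gcg, Cck and the other tested gut hormones in the Gcg line (2 plates), at 24 h (orange) and 4 d (purple); filled symbols passed an adjusted p of 0.05 in edgeR. Gcg (-4.09) and Sct (3.86) at 4 d are filled, and Cck lies at 0.16 and -1.91.

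Of 8 genes of prohormone processing, 7 were tested. In the Gcg line at 4 d, where 0.277% of all genes were called, 1 of the 7 was called: Pcsk1n, which encodes proSAAS, an inhibitor of prohormone convertase 1, rose (3.13 ± 0.43, adjusted p = 0.023), while Pcsk1, that convertase itself, which cuts GLP-1 from proglucagon, changed by 0.54 ± 0.32 (adjusted p = 0.82) and Cpe, the carboxypeptidase that trims the peptides, by -0.66 ± 0.35 (0.77). Over all lines, where 3.33% of genes were called, Pcsk1n rose and Pam, which amidates GLP-1 and cholecystokinin, fell by 0.77 on the log2 scale (adjusted p = 0.035). The median of the list in the Gcg line was 0.0090, close to the median of all genes.

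Among 17 tested transcription factors of 18 listed, Nkx2-2, a homeobox factor of endocrine cells, fell in the Gcg line at 4 d (-2.19 ± 0.36, adjusted p = 0.047) and in all lines (-1.99 ± 0.23, adjusted p = 0.00033), and Rfx6 fell in all lines (-1.05 ± 0.24, adjusted p = 0.024) but not in the Gcg line (-0.88 ± 0.34, 0.65). Pax6 (-0.35 ± 0.38, adjusted p = 0.95) and Isl1 (-0.82 ± 0.33, 0.68), factors known to act on the Gcg gene, did not pass in the Gcg line, nor did Etv1 (-0.51 ± 0.38, 0.86). The list's median there was -0.11. So 1 of the 17 was called in the Gcg line at 4 d and 2 over all lines, where 0.277% and 3.33% of all genes were called.

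Of 13 nutrient sensors 6 passed the filter, and edgeR called 0 of them at 4 d in the Gcg line (1 at an unadjusted p under 0.05, 0 with DESeq2), the lowest adjusted p being 0.31 for Ffar2, a receptor for short-chain fatty acids (-1.79 ± 0.47). Of 9 genes of secretion and excitability, 7 were tested and edgeR called 0 in the Gcg line at 4 d (2 at an unadjusted p under 0.05, 1 with DESeq2), with Scn3a, a sodium channel gene, at -1.80 ± 0.32 (adjusted p = 0.078). Over all lines Rab3c, a small GTPase of secretory vesicles, fell by 1.49 (adjusted p = 0.0094). Of 10 receptor genes, 3 were tested and Sstr1, a somatostatin receptor, rose in the Gcg line at 4 d (4.60 ± 0.44, adjusted p = 0.0039) and in all lines (4.03 ± 0.27, adjusted p = 5.2e-07). Of all genes, 0.277% were called at 4 d in the Gcg line and 3.33% over all lines. A count of 0 in the Gcg line from lists this short therefore says little.

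By pattern over the 17 sums with at least 10 cells, the genes most like Gcg were Fap (Pearson r = 0.93), Golm1 (0.92), Hoxb9 (0.92), Kcnt1 (0.91) and Cyba (0.91), and Cck ranked 98th (0.81). Fap, which encodes fibroblast activation protein, lies 17292 bases from Gcg on the same strand of chromosome 2 and does not overlap it. In the Gcg line Fap stood at 823 and 1155 CPM untreated, 590 and 698 CPM at 24 h and 202 and 197 CPM at 4 d, lower in both plates at 4 d (-2.11 ± 0.31, adjusted p = 0.045), and it was at most 3 transcripts in any sum of the other lines. For Cck the closest genes were Etv1 (0.93), Ceacam10 (0.93), Hadh (0.92), S100a16 (0.91) and Tuft1 (0.91), with Gcg 135th. Since the sums span 3 lines, these values follow the lines as much as the treatment.

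Within the Gcg plates, across 409 thinned cells and 3296 genes, Cck was the gene most like Gcg (mean Spearman rho of the plates 0.66), followed by Cpe (0.51), Scg2 (0.48), Fap (0.48) and Etv1 (0.44). The genes most like Cck were Cpe (0.67), Gcg (0.66), Scg2 (0.59), an enterocyte marker (0.58) and Ptprn2 (0.57). Cpe, Scg2 and Ptprn2 are secretory granule genes of endocrine cells in general, so part of each list separates endocrine from other cells.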

How the data were processed

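Transcripts were measured by SORT-seq (CEL-seq2 in 384-well plates with spike-ins, NextSeq500) in 8 plates, per the labels' protocols. BWA 0.6.2-r126 and mm10 come from the submitters' processing notes, and the counter, annotation and use of strand are not stated there. The authors deposited estimated counts per gene and well, corrected for identifiers hit more than once; the values are whole identifier counts for 4096 identifiers (6 bases) within 0.01, although the labels give 4 bases. No file lists a gene without a transcript, so the unlisted Gcg of 3 files was taken as 0. Spike-ins and mitochondrial genes were left out.

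Cells needed 2000 transcripts, and no doublet caller was run. Counts were summed per plate and condition (at least 10 cells), rounded to whole numbers, and tested with edgeR 4.0.16 (TMM, filterByExpr, quasi-likelihood, Benjamini-Hochberg over all genes, threshold 0.05); of 883 cells of 5 plates, all but the 9 of 1 condition of Tac1 plate 2 entered the 14 sums, with 7, 3 and 2 residual degrees of freedom in the pooled, line and untreated fits. Conditions share a plate, so plate is the block, and the line fits borrow their spread from all lines. Shares used cells thinned to 2000 transcripts (995 of 1006), Wilson 95% intervals and exact sign-flip tests (SciPy 1.17.1). DESeq2 1.42.0, other filters, minimums, totals and thresholds and leaving out plates were the alternatives. The edgeR step was tested on simulated data. The members and gene lists were chosen with earlier results of these data known. Besides Gcg and Cck, up to 4 genes per list with the lowest p at 4 d, and the 5 genes most alike, are named; others were chosen after their values were seen. Intervals and limits cover counting error only.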

Additional observations from a re-analysis of the deposited data

Results flagged for a closer look

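The Gip plate moved against both Gcg plates in 3 comparisons of summed levels, and this difference was not tested because the Gip line has 1 plate with all conditions. For Cck at 4 d it was higher by 2.61 on the log2 scale while the Gcg plates changed by -1.44 and -2.65. For Gcg it was higher by 2.43 at 24 h and by 2.32 at 4 d, on 4, 23 and 32 transcripts in all, where the Gcg plates changed by -0.14 and -1.30 and by -4.34 and -4.16. The 4 d value of the Gip plate for Gcg also lay far from the other 3 plates with transcripts in both conditions.

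In the share of cells with Gcg at 4 d, Gcg plate 1 stood apart from the other 4 plates, with a change of -32.6 percentage points. The untreated share was 0 on 2 of those plates and 1.47% on another, which left little or no room to fall. The remaining plate, Gcg plate 2, had an untreated share of 92% and changed by -4.5 points. On it 4 of 5 non-endocrine cells also reached 5 Gcg transcripts at 4 d. What sets the distance was not tested. Chance gives a distance of this kind in about 1 in 20 groups of like samples, and plates of different lines are not like samples.

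Wells with under 500 transcripts, which no comparison used, held both hormones on the Gcg plates. Their median was 5.00 Gcg and 3.001 Cck transcripts on plate 1 (91 wells) and 8.01 Gcg and 4.00 Cck on plate 2 (160 wells), while the medians on all 6 other plates were 0.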

How the results depend on the processing

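Of 389 alternative values of 24 results on the members, 337 kept their direction and their side of the threshold, 9 lost a call, 24 gained one and 19 reversed; the cause was not tested. The alternatives without the richest Tac1 cell and with the background taken off were chosen after seeing the data.

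Leaving out 1 plate or the richest Tac1 cell at a time, the ranges were -4.19 to -3.99 (Gcg, Gcg line, 4 d), -2.48 to -1.29 (Cck, Gcg line, 4 d), -0.20 to 0.61 (Cck, Gcg line, 24 h), -4.93 to -0.59 and -3.22 to 1.12 (Gcg, Tac1 line, 24 h and 4 d), -2.79 to 0.074 and -2.07 to 0.81 (Cck, Tac1 line), -0.081 to 4.72 and -5.21 to -0.79 (Gcg, Gcg minus Tac1 line, 24 h and 4 d), 0.088 to 3.41 and -2.72 to 0.77 (Cck, the same, 24 h and 4 d), -1.04 to 0.20 and -2.001 to 0.27 (Cck, all lines, 24 h and 4 d) and -0.64 to 2.94 (untreated Cck, Gip minus Tac1 line). Shares at 24 h ranged from -3.17 to 0.26 points for Gcg and from -2.74 to 7.83 for Cck, those at 4 d from -9.64 to -1.49 and from -7.66 to -1.15, and genes called in the Gcg line at 4 d from 0 (without Gcg plate 2) to 113 (without Gcg plate 1), with 23 in all plates. Effects in the Tac1 line without Tac1 plate 1 gave no value, since the other plate held no transcript of either gene in its tested sums.

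The conditions share a plate, so the fit had plate as a block; without this replicate block the Gcg change was -4.07 (adjusted p = 0.16 with edgeR) and 43 genes were called, and no other call on the members changed. With no filter on low counts, 161 genes were called, and calls were gained by Cck in the Gcg line at 4 d (-1.95), Cck in the Tac1 line (-2.81 and -2.19 at 24 h and 4 d), Gcg there (-4.95 and -3.34), the line differences at 24 h (Cck 2.99, Gcg 4.29) and Gcg over all lines at 4 d (-2.93). With pan-endocrine cells only, 285 genes were called and Cck in the Gcg line gained a call (-1.59), in a fit whose spread came from the Gcg plates alone. In the Tac1 line, where only plate 1 kept treated sums, Cck changed by -2.78 and -1.96 and Gcg by -4.92 and -3.33. The line difference of Gcg at 24 h was 4.19 there. DESeq2 called 44 genes, gained Cck in the Gcg line (-1.86) and Gcg in the Tac1 line at 24 h (-4.82), and lost untreated Cck (5.50 against the Tac1 line, 5.08 against the Gip plate); the last was also lost with DESeq2 size factors (5.08) and all listed genes (5.08). With cells of at least 4000 transcripts 6 genes were called, Gcg lost its call (-4.24) and untreated Cck between the Gip and Tac1 lines reversed (-0.75).

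Without the richest Tac1 cell, reversals were 0.074 and 0.81 (Cck, Tac1 line), 1.12 (Gcg, Tac1 line, 4 d), 0.18 and 0.27 (Cck, all lines), -2.72 (Cck line difference, 4 d) and -0.081 (Gcg line difference, 24 h), and Cck between the Gip and Tac1 lines gained a call (2.94). The Cck line difference at 4 d also reversed with cells of at least 1000 transcripts (-0.20), sums of at least 5 cells (-0.11) and background taken off (-0.083). The share of cells with Cck at 24 h reversed at 20 transcripts (-0.43), and that with Gcg without thinning (0.74). Another threshold chosen after seeing the data, the 95th percentile of unthinned counts in the non-endocrine cells of a plate, was passed for Gcg at 4 d by 5 of 38 and 0 of 12 pan-endocrine cells; it pools conditions that differ in depth. With 9 to 135 cells per plate and condition, small changes of share were not detectable.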
